A study of Rattus norvegicus with 11 samples.

Results

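The genes described here encode the nuclear-encoded subunits of the oxidative phosphorylation complexes. They were taken by gene symbol, as the symbols that begin with Nduf followed by a, b, c, s or v and a digit (complex I), Sdha to Sdhd (complex II), Uqcr (complex III), Cox4 to Cox8 (complex IV) and Atp5 (complex V), leaving out complex I assembly factors (Ndufaf) and pseudogenes. Of the 30560 genes of the deposited table, 120 matched, 16 of these were pseudogenes, and the remaining 104 comprised 45 genes of complex I, 4 of complex II, 11 of complex III, 18 of complex IV and 26 of complex V. Striatal RNA was measured by poly(A) RNA-seq at day 3 in 11 adult male Sprague-Dawley rats, 1 library per rat, to compare intracerebral hemorrhage of differing severity and the effect of hematoma removal. Common hemorrhage (IC, n = 3) was made by injecting 0.2 U of bacterial collagenase VII-S in 1.0 μL of saline into the right striatum, and severe hemorrhage (IS, n = 3) by 0.6 U in 3.0 μL. In IS-HA (n = 3) the severe dose was followed by hematoma aspiration at 6 h. The Normal rats (n = 2) are described without an injection, so that the needle and vehicle cannot be told apart from the hemorrhage in any comparison with them. Collagenase opens vessels by digesting their basal lamina.

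Oxidative phosphorylation is carried out in the inner mitochondrial membrane. Complex I (NADH dehydrogenase) and complex II (succinate dehydrogenase) pass electrons to ubiquinone, complex III (the cytochrome bc1 complex) passes them to cytochrome c, complex IV (cytochrome c oxidase) reduces oxygen, and complex V (ATP synthase) uses the proton gradient so made. Complexes I, III, IV and V combine nuclear-encoded subunits with subunits encoded in mitochondrial DNA, while complex II is wholly nuclear-encoded. Neurons of the striatum depend on this pathway for firing and synaptic transmission, and several complex IV and V subunits exist as isoforms from separate genes.

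The counts assigned to genes ranged from 6701301 to 18817645 per rat. After a filter on low counts (filterByExpr of edgeR) 15742 genes were tested by the quasi-likelihood method in a single model of all 4 groups, p-values were adjusted by Benjamini-Hochberg over these genes, and log2 fold changes refer to counts scaled by the TMM method. TPM values, used below as levels, are also divided by gene length. Of the 104 subunit genes, 84 were tested (39, 4, 7, 15 and 19 in complexes I to V). The other 20 had at most 15 counts in any rat, and 10 of them were at 0 in every rat. They comprised 14 genes whose symbol marks a copy of another subunit gene, 3 additional identifiers under the symbols Ndufb2, Atp5mc1 and Atp5mpl, and Uqcr11, Cox7b2 and Cox8c. Uqcr11 had 12 counts over the 11 rats, and whether its reads were assigned to another identifier was not tested. Cox8a was not among the symbols that matched, so nothing is said of its level. As a check of the tissue, the neuronal markers, with the striatal genes Ppp1r1b, Drd1, Drd2 and Gad1 among them, passed the filter for 12 of 12 genes. Between IS and Normal, neuronal markers were lower for 11 of 12 genes (median log2 fold change -1.71) and oligodendrocyte markers for 7 of 8 (-0.97), while microglial and macrophage markers were higher for 12 of 12 (4.11) and neutrophil markers for 5 of 5 (7.74). Over all genes tested 24.2% were lower and 24.8% higher. The summed TPM of the neuronal markers was 5389 and 6227 in the Normal rats and between 968 and 3725 in the 9 injured rats, and that of the microglial and macrophage markers was 387 and 261 in the Normal rats against 2885 to 9400. Their part in the results below was not tested, and in such tissue fewer cells of a type and less RNA per cell cannot be told apart.

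The library of IS-HA replicate 2, the smallest of the 11, stood apart for these genes. It was the highest of the 11 rats for 66 of the 84 genes tested, and its median log2 level relative to the mean of the Normal rats was 0.88, against 0.01 and -0.13 in IS-HA replicates 1 and 3. The corresponding median over all genes tested was 0.04 in that library. The summed TPM of the 104 genes was 14053 and 12634 in the Normal rats, 14370.1, 13827 and 14235 in IC, 15686, 16459 and 15261 in IS, and 14534, 23431 and 14086 in IS-HA. Apart from IS-HA replicate 2, the total therefore varied little between rats, with the 3 IS rats above all others. For IS-HA, the counts of genes past the threshold and the medians in the main fit are given with and without this rat. Several single genes are also given both ways, and other IS-HA values include this rat. The plot of relative levels by complex shows this rat as a displaced cloud in each panel.

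**Figure D1:**
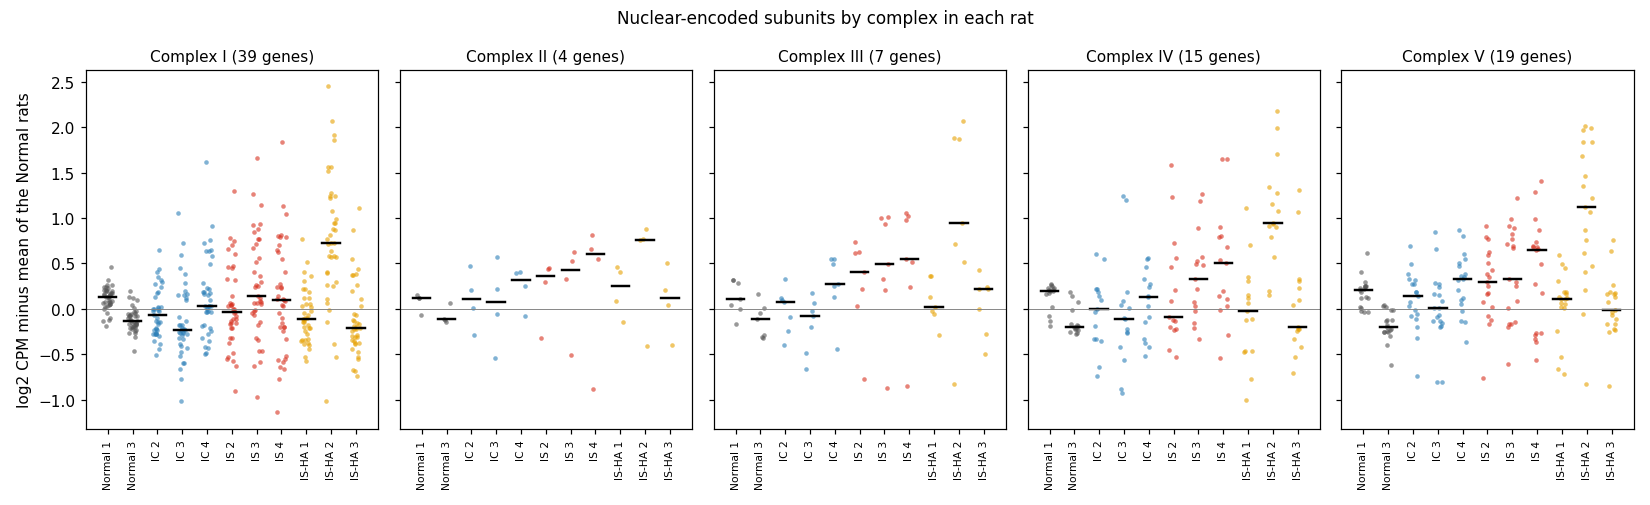
Log2 CPM of each nuclear-encoded subunit gene relative to the mean of the Normal rats, in each of the 11 rats and by complex, with 1 point per gene and black bars at the median. In complex V the medians are 1.12 in IS-HA replicate 2 and from -0.20 to 0.65 in the other rats.

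Few of these genes passed the test in any comparison, and those that did were split between higher and lower. Against Normal, 1 of 84 genes passed in IC, which was lower, where 17.6% of all genes tested passed and 4.64% were lower. In IS 12 of 84 passed, 8 higher and 4 lower, where 49% of all genes tested passed (24.8% higher and 24.2% lower). In IS-HA 9 passed, 6 higher and 3 lower, where 31.5% of all genes did (19.5% higher and 12.1% lower). Neither IS against IC nor IS-HA against IS had a subunit gene past the threshold, where 0% and 0.00635% of all genes passed. At an unadjusted p under 0.05 these comparisons had 3 subunit genes each (2 higher and 1 lower, and 3 higher). Of all 15742 genes, 1653 were higher and 1845 lower at that p in IS against IC. In IS-HA against IS 879 were higher and 529 lower. DESeq2's Wald test and limma on log2(TPM + 1) also called 0 subunit genes in both, where DESeq2 called 6.33% of all genes in IS against IC and 0.451% in IS-HA against IS. The median log2 fold change over the 84 genes was -0.00 in IC, 0.22 in IS and 0.36 in IS-HA against Normal, beside 0.00, 0.02 and 0.06 over all genes tested. Without IS-HA replicate 2 the IS-HA median was -0.06, and 3 genes were higher (Sdhc, Cox6a2 and Atp5mc2) and 2 lower (Ndufs3 and Ndufs4), where 28.2% of all genes passed. That rat also enters the other comparisons through the shared estimate of spread. When it was left out, 31 genes were higher and 10 lower in IS against Normal. Over all genes 59.5% then passed in IS (30.2% higher and 29.2% lower). In IC against Normal 5 were then higher and 5 lower, where 33.3% of all genes passed. By CPM, all IC rats lay above both Normal rats for 15 genes and below for 15, where 32.4% and 31.3% of all genes did. All IS rats lay above both for 35 genes and below for 15 (37.6% and 36.9% of all genes), and all IS-HA rats for 17 and 5 (31.7% and 29.2%). In IC and IS-HA both kinds of separation were seen for a smaller share of these genes than of all genes, and in IS this held for the lower side, with the higher side at 35 of 84. These differences in share were not tested.

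Which genes passed, and on which side, depended on whether a trend with gene length was removed. The subunit genes are short, with a median length 0.42 times that of the median gene tested, and 55 of the 84 lie in the shortest length quintile of all genes. Over all genes in that quintile the median log2 fold change was 0.52 in IS and 0.53 in IS-HA against Normal, whereas it was -0.55 and -0.38 in the longest quintile. Each rat's trend of level with gene length over all genes was then removed by offsets in the same model. With them 22, 28 and 22 of the 84 genes passed in IC, IS and IS-HA against Normal, and all of these were lower. Over all genes 23.3%, 48.8% and 34.1% then passed, and 12%, 27.2% and 18.7% were lower. With the offsets the median of the 84 genes was -0.38, -0.28 and -0.22, beside -0.16, -0.10 and -0.11 over all genes. Within the 84 genes the Spearman correlation of change with length was -0.23, -0.32 and -0.33 in IC, IS and IS-HA without the offsets. It was 0.24, 0.26 and 0.26 with them, so within this set the offsets reversed the trend and did not flatten it. Whether the length trend arose in the tissue or in the libraries was not tested. The genes that passed in IS are therefore given below with their values under the offsets. Ndufs4, Ndufs1 and Uqcrc2 passed the test as lower in IS with and without the offsets, whereas none of the 8 higher genes passed with them. The scatter of change against length shows both fits.

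**Figure D2:**
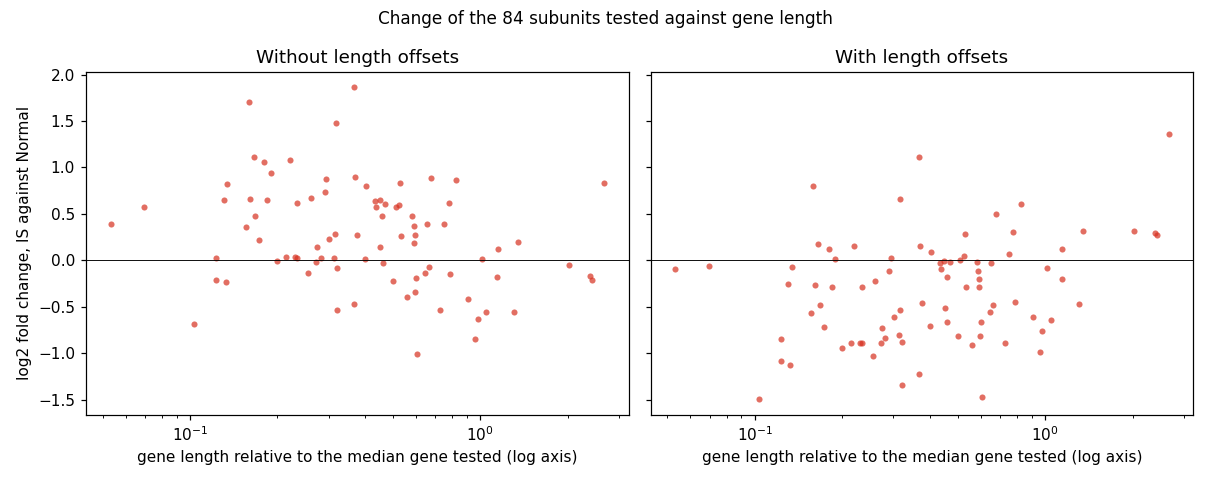
Log2 fold change in IS against Normal of the 84 subunit genes against gene length relative to the median gene tested (log axis), without (left) and with (right) the offsets for gene length. Without offsets 56 genes lie above 0 and 28 below, and with them 23 lie above and 61 below.

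Expression of these genes is known to be coordinated by NRF1, by ETS factors of the GABP type and by YY1, whose binding motifs occur near many of their starts. RefSeq promoters (assembly GRCr8, 250 bases before to 50 after the gene start) were matched for 67 of 78 subunit genes looked up. The NRF1 motif (GCGCA and GCGC with any base between them) occurred on either strand in 22.4% of these 67, in 9.08% of the promoters of genes tested and in 4.71% of all 27457 promoters. The letters CCGGAAG (ETS) occurred in 28.4%, 15.9% and 9.22%, and AANATGGCG (YY1) in 23.9%, 5.59% and 3.33%. At least 1 of the 3 was present in 41 of the 67 promoters, in 19 of 33 of complex I, 3 of 4 of complex II, 5 of 6 of complex III, 2 of 8 of complex IV and 12 of 16 of complex V. A match of letters is a description and not a bound site. In IS against Normal the median log2 fold change was 0.22 for the 41 genes with a match and 0.20 for the 26 without one. All 4 genes that were lower had a match, as did 3 of the 6 higher genes that had a promoter in the table. Promoters of genes that the results turn on are printed with their genes below, with matching letters in capitals.

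Complex I had 3 genes past the threshold in IS against Normal, 1 higher and 2 lower. Ndufs4 (ENSRNOG00000011383), an accessory subunit of the NADH-oxidizing arm whose loss in mice gives a Leigh-like brain disease, was, of the 84, the gene that passed against Normal in all 3 injured groups. Its TPM was 106 and 116 in the Normal rats, 83.6, 71.1 and 78.9 in IC, 62.9, 55.5 and 46.5 in IS, and 84.003, 65.2 and 73.4 in IS-HA. All 9 injured rats lay below both Normal rats, the 3 IS rats lay below all IC rats, and the lowest IS-HA rat lay above the highest IS rat. The log2 fold change against Normal was -0.56 in IC (SE 0.16, adjusted p = 0.0342, edgeR), -1.004 in IS (SE 0.16, adjusted p = 0.000715) and -0.60 in IS-HA (SE 0.16, adjusted p = 0.0177). With the length offsets these were -0.93, -1.47 and -1.04, and all passed. IS against IC gave -0.44 (95% interval -0.76 to -0.12, adjusted p = 0.162) and IS-HA against IS gave 0.41 (0.09 to 0.73, adjusted p = 0.540), neither past the threshold. Ndufs4 had the smallest p of the 84 genes in both of these comparisons. Its promoter, chr2:47794865-47795164 on the minus strand of GRCr8, is shown because this gene fell in every injured group, and it holds the YY1 letters from 4 bases after the gene start:
Ndufs4: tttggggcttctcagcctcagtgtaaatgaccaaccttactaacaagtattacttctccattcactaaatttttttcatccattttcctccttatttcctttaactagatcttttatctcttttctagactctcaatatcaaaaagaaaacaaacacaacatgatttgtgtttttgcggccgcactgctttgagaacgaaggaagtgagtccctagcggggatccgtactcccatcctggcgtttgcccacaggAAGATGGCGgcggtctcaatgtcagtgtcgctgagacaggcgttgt

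Ndufs1 (ENSRNOG00000011849), the largest iron-sulfur subunit of the complex I core, had TPM of 74.8 and 98.3 in Normal, 71.8, 59.5 and 60.8 in IC, 64.7, 54.6 and 46.5 in IS, and 81.2, 55.5 and 65.6 in IS-HA. In TPM all IS and IC rats lay below both Normal rats, while IS-HA replicate 1 lay between them. By CPM that rat was also below both, at -0.21 against -0.13 and 0.13 (log2, relative to the Normal mean). The log2 fold change was -0.63 in IS (SE 0.17, adjusted p = 0.0114) and -0.76 with the length offsets, and it was -0.48 in IC (adjusted p = 0.0744) and -0.38 in IS-HA (adjusted p = 0.113). Of the other core subunits, Ndufv2, which carries an iron-sulfur centre of the NADH-oxidizing arm, came closest to the threshold in IS, with -0.53 (adjusted p = 0.0501) and -1.34 with the offsets (adjusted p = 0.000189). Ndufs3 gave -0.47 (adjusted p = 0.150), and -1.23 with the offsets (adjusted p = 0.000281). Ndufv1, Ndufs7 and Ndufs8, which bind flavin or carry iron-sulfur clusters, lay at -0.07, -0.05 and 0.19 in IS with adjusted p of 0.829, 0.893 and 0.653.

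The higher gene of complex I was Ndufb11b (ENSRNOG00000005572), a copy of Ndufb11 whose reads may be shared with it. It stood at 0.357 and 0.608 TPM in Normal and between 0.928 and 2.30 in the injured rats, with a log2 fold change of 1.86 in IS (SE 0.63, adjusted p = 0.0307), and 1.11 with the offsets (adjusted p = 0.150). Ndufb11 itself, a subunit of the membrane arm that was named after its values were seen, had 119.9 and 103 TPM in Normal and 159 to 271 in the 9 injured rats. It passed in IS-HA only, with 0.89 (SE 0.31, adjusted p = 0.0470), and fell to 0.44 (adjusted p = 0.0664) without IS-HA replicate 2 and 0.04 with the offsets. Ndufb7, the most abundant complex I gene, passed in no comparison, with 175 and 145 TPM in Normal, 291, 378 and 323 in IS and 743 in IS-HA replicate 2. In IS its log2 fold change was 1.06 (SE 0.55, adjusted p = 0.131), and without IS-HA replicate 2 it passed at the same size (1.06, adjusted p = 0.00097). The 36 genes that did not pass in IS ranged from -0.56 to 1.06, and the median over the 39 genes was 0.03. Ndufa4, classed here by its symbol but known to be a subunit of complex IV, gave -0.41 (adjusted p = 0.200). Its hypoxia-induced relative Ndufa4l2 gave 0.28 (adjusted p = 0.4996), and held 21.7% ± 0.0804 of their joint TPM in Normal (SD, n = 2) and 30.9% ± 4.83 in IS (SD, n = 3).

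**Figure D3:**
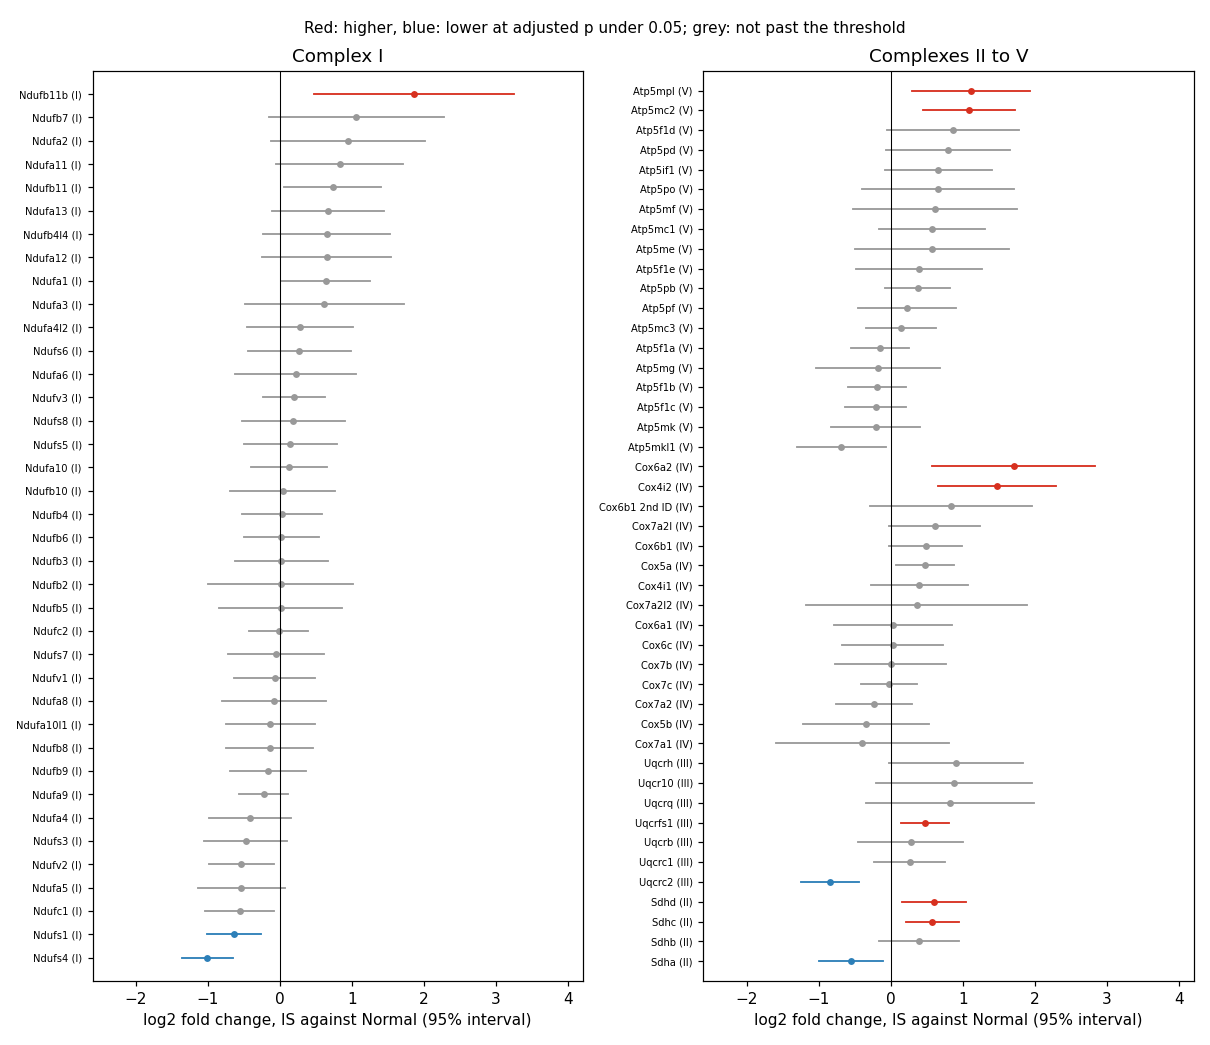
Log2 fold change in IS against Normal with 95% intervals for 83 of the subunit genes tested, complex I on the left and complexes II to V on the right. Red marks the 8 higher genes and blue the 4 lower genes at an adjusted p under 0.05, and grey the 71 others.

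In complex II, 3 of 4 genes passed in IS against Normal, and they did not move the same way. Sdha (ENSRNOG00000013331), the flavoprotein that oxidizes succinate, had TPM of 110.5 and 133 in Normal, 106, 91.1 and 109 in IC, 102, 83.8 and 60.8 in IS, and 120.2, 77.1 and 101 in IS-HA. The 3 IS rats lay below both Normal rats, with a log2 fold change of -0.55 (SE 0.20, adjusted p = 0.0423), and the gene did not pass with the length offsets (-0.47, adjusted p = 0.0650). Sdhc (ENSRNOG00000003163), a membrane anchor at the quinone site and the most abundant complex II gene, stood at 159 and 142 TPM in Normal and between 188 and 244 in all 9 injured rats. It was higher in IS by 0.58 (SE 0.17, adjusted p = 0.0165) and in IS-HA by 0.58 (SE 0.17, adjusted p = 0.0260), and by 0.47 without a call in IC (adjusted p = 0.0760). Sdhd (ENSRNOG00000022980), the other anchor, had 144 and 134 TPM in Normal, 172, 177 and 175 in IC, and 199, 197 and 225 in IS, and was higher in IS by 0.60 (SE 0.20, adjusted p = 0.0299). With the offsets Sdhc and Sdhd stood at 0.01 and 0.04 in IS. Sdhb, the iron-sulfur subunit between them, gave 0.39 (95% interval -0.16 to 0.94, adjusted p = 0.215).

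In complex III, 2 of 7 genes passed in IS. Uqcrc2 (ENSRNOG00000036742), a core protein of the matrix side, had TPM of 98.5 and 135 in Normal, 93.8, 79.9 and 80.9 in IC, 71.6, 61.9 and 59.3 in IS, and 103, 55.2 and 90.1 in IS-HA. Every IC and IS rat lay below both Normal rats, every IS rat lay below every IC rat, and in TPM IS-HA spread from below all IS rats to the level of Normal. By CPM all 3 IS-HA rats lay below both Normal rats, at -0.29, -0.82 and -0.50 (log2, relative to the Normal mean). The log2 fold change was -0.84 in IS (SE 0.18, adjusted p = 0.00402), -0.53 in IS-HA (SE 0.19, adjusted p = 0.0497) and -0.51 in IC (SE 0.19, adjusted p = 0.0805). Without IS-HA replicate 2, the lowest of the 11 rats in TPM, the IS-HA value was -0.40 (adjusted p = 0.0910), and with the length offsets the IS value was -0.99. Its promoter, chr1:184598990-184599289 on the plus strand of GRCr8, is shown because this gene fell with and without the length offsets, and it holds the ETS letters at 2 places on the opposite strand, 117 and 28 bases before the gene start:
Uqcrc2: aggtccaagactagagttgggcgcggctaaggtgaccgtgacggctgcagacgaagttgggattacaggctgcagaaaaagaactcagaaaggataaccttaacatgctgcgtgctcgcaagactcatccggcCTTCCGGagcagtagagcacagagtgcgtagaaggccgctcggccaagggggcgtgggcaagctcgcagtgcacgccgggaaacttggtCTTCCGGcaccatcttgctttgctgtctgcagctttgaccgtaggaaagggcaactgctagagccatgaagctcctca

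Uqcrfs1 (ENSRNOG00000018281), the Rieske iron-sulfur protein, moved the other way on the count scale. It stood at 163 and 180.0 TPM in Normal, 231, 212 and 197 in IC, 241, 237 and 227 in IS, and 240.4, 208 and 220.3 in IS-HA, with no injured rat as low as either Normal rat. The log2 fold change in IS was 0.47 (SE 0.15, adjusted p = 0.0236), and -0.18 with the length offsets (adjusted p = 0.352), so the direction was not the same under both. Uqcrc1, the partner of Uqcrc2, gave 0.26 (adjusted p = 0.355). Uqcrq, a small subunit beside cytochrome b and the most abundant complex III gene, had 342 and 240.1 TPM in Normal, 469, 541 and 523 in IS and 1027 in IS-HA replicate 2, and its log2 fold change of 0.82 in IS did not pass (SE 0.53, adjusted p = 0.215).

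In complex IV the 2 genes that passed in IS, both higher, were tissue-restricted isoforms expressed at low level here. Cox4i2 (ENSRNOG00000007827), the oxygen-responsive isoform of the largest nuclear-encoded subunit, had TPM of 3.29 and 3.51 in Normal, 5.51, 9.06 and 4.17 in IC, 8.99, 8.57 and 10.6 in IS, and 6.29, 7.41 and 8.30 in IS-HA. All injured rats lay above both Normal rats. The log2 fold change was 1.48 in IS (SE 0.37, adjusted p = 0.00804), 1.09 in IS-HA (SE 0.37, adjusted p = 0.0456) and 0.81 in IC (SE 0.36, adjusted p = 0.143). Without IS-HA replicate 2 the IS-HA value was 0.95 (adjusted p = 0.0844), and with the length offsets the IS value was 0.66 (adjusted p = 0.149). Cox4i2 made up 1.24% and 1.65% of the joint TPM of Cox4i1 and Cox4i2 in Normal, and 3.04%, 2.56% and 3.32% in IS, so that Cox4i1 stayed the main isoform in all 11 rats. Cox4i1 itself, the form used in most tissues, gave 0.39 in IS (95% interval -0.28 to 1.07, adjusted p = 0.305). In brain, Cox4i2 is known from pericytes. Markers of pericytes and smooth muscle were higher for 2 of 6 genes and lower for 1 in IS, where 24.8% and 24.2% of all genes were. Their summed TPM was 207 and 194 in Normal and 532 to 1284 in the injured rats, and the pericyte marker Rgs5 was lower in IS (-1.83, SE 0.35, adjusted p = 0.00183). Their part in the Cox4i2 result was not tested.

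Cox6a2 (ENSRNOG00000019851), known as the heart and skeletal muscle isoform, had TPM of 2.74 and 1.96 in Normal, 4.202, 7.13 and 3.33 in IC, 8.98, 6.11 and 8.22 in IS, and 6.44, 11.1 and 7.57 in IS-HA. Again no injured rat was as low as either Normal rat. The log2 fold change was 1.71 in IS (SE 0.52, adjusted p = 0.0188) and 1.79 in IS-HA (SE 0.52, adjusted p = 0.0240), or 1.41 without IS-HA replicate 2 (adjusted p = 0.0486), and with the length offsets the IS value was 0.80 (adjusted p = 0.160). The widely used isoform Cox6a1, the most abundant complex IV gene, lay between 751 and 1504 TPM and gave 0.03 in IS (adjusted p = 0.946), and -0.89 with the length offsets (adjusted p = 0.0045). The promoter of Cox6a2, chr1:192219667-192219966 on the minus strand of GRCr8, is shown for contrast with those above, since none of the 3 motifs was found in it:
Cox6a2: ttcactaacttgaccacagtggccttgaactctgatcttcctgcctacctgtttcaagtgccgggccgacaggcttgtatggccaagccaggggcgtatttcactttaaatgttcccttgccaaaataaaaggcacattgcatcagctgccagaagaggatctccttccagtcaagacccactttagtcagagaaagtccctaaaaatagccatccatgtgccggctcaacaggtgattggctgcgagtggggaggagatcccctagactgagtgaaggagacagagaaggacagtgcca

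The other muscle isoform, Cox7a1, did not share this pattern, with 2.26 and 3.27 TPM in Normal, 2.43, 2.09 and 1.67 in IS, and a log2 fold change of -0.40 (SE 0.55, adjusted p = 0.568). Cox7a2, its counterpart in most tissues, gave -0.23 (adjusted p = 0.435), and Cox7a2l, a factor of respiratory supercomplex assembly, gave 0.61 (adjusted p = 0.0981). Cox7b, another small structural subunit, gave -0.00 in IS (95% interval -0.77 to 0.76). With the length offsets Cox7a2 and Cox7b passed as lower, at -1.13 and -0.94. Cox5a, a subunit of the matrix side, gave 0.48 in IS (SE 0.18, adjusted p = 0.0517), and Cox6b1, which faces the intermembrane space, gave 0.48 (adjusted p = 0.102). Cox5a and Cox6b1 were, after Ndufs4, the genes with the smallest p in IS against IC, with 0.37 (adjusted p = 0.215) and 0.57 (adjusted p = 0.172). Cox5b, the zinc-binding subunit, was lower in IC than in Normal in all 3 rats, at 103, 88.7 and 99.3 TPM against 170.4 and 131, and its log2 fold change of -0.70 did not pass (SE 0.40, adjusted p = 0.235). It passed at -1.07 with the length offsets (adjusted p = 0.0418) and at -0.70 without IS-HA replicate 2 (adjusted p = 0.0162). In IS-HA replicate 2 it reached 321 TPM, and in IS-HA against IS its value was 0.84 (adjusted p = 0.551) with that rat and 0.16 (adjusted p = 0.563) without it. Cox7b2 and Cox8c, testis-restricted forms, had 8 and 0 counts over the 11 rats.

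**Figure D4:**
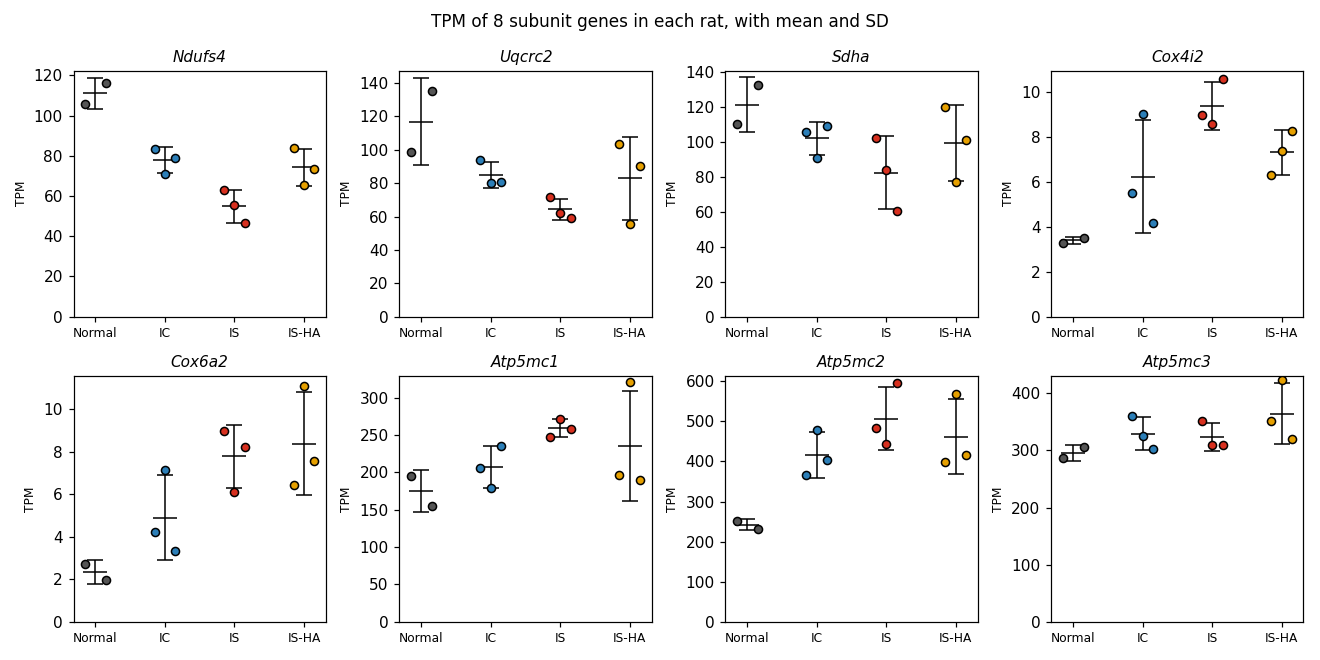
TPM of 8 subunit genes in each rat by group, with horizontal marks at the mean and error bars of 1 SD (n = 2 for Normal and n = 3 for the other groups). Ndufs4, Uqcrc2 and Sdha lie lowest on average in IS, at 55.0, 64.3 and 82.3 TPM, whereas Cox4i2, Cox6a2 and Atp5mc2 lie above Normal in every injured rat.

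In complex V, 2 of 19 genes passed in IS, both higher. Atp5mc2 (ENSRNOG00000015320) is 1 of 3 genes (with Atp5mc1 and Atp5mc3) that encode the same mature c subunit of the rotor ring with different targeting peptides. Its TPM was 252 and 232 in Normal, 367, 478 and 403 in IC, 483, 443 and 595 in IS, and 399.5, 569 and 417 in IS-HA. All 9 injured rats lay well above both Normal rats, with a log2 fold change of 1.08 in IS (SE 0.29, adjusted p = 0.0104), 0.95 in IS-HA (SE 0.29, adjusted p = 0.0284) and 0.72 in IC (SE 0.28, adjusted p = 0.101). Without IS-HA replicate 2 the IS-HA value was 0.61 (adjusted p = 0.0479). Atp5mc1 and Atp5mc3 gave 0.58 (adjusted p = 0.170) and 0.14 (adjusted p = 0.608) in IS. Atp5mc2 supplied 34.4% and 33.5% of the TPM of the 3 genes in Normal, 39.3%, 48.7% and 42.8% in IC, 44.6%, 43.2% and 51.2% in IS, and 42.2%, 43.4% and 45.0% in IS-HA. Thus its share was higher in each of the 9 injured rats, IS-HA replicate 2 included, although in the comparison of a group of 3 with the 2 Normal rats a two-sided exact permutation test cannot give a p below 0.2. Atp5mc2 is also the shortest of the 3, at 0.22 of the median gene length against 0.439 and 0.452. With the length offsets Atp5mc2, Atp5mc1 and Atp5mc3 gave 0.15, -0.09 and -0.51 in IS, in the same order, and Atp5mc3 then passed as lower (adjusted p = 0.0220). The Atp5mc2 promoter, chr7:135678169-135678468 on the minus strand of GRCr8, is shown because this isoform rose, and it holds the NRF1 letters from 56 bases before the gene start:
Atp5mc2: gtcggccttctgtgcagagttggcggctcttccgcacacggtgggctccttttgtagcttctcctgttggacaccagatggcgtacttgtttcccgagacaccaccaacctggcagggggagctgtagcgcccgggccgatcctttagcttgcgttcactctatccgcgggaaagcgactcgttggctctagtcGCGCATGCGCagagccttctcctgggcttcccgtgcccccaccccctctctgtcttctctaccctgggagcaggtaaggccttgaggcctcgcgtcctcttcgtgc

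Atp5mpl (ENSRNOG00000070574), a small membrane subunit of the ATP synthase, had 45.5 and 35.5 TPM in Normal, 70.1, 70.1 and 70.6 in IC, 74.6, 93.4 and 91.9 in IS, and 62.1, 123 and 75.8 in IS-HA. It was higher in IS by 1.11 (SE 0.37, adjusted p = 0.0295) and in IS-HA by 1.13 (SE 0.37, adjusted p = 0.0407), and in IS-HA it gave 0.62 without replicate 2 (adjusted p = 0.0730). With the length offsets the IS value was 0.18 (adjusted p = 0.495). The alpha, beta and gamma subunits of the F1 part did not pass. Atp5f1b, the catalytic beta subunit and the most abundant gene of the 104, stood at 1271 and 1440.4 TPM in Normal and 1359, 1183 and 994 in IS, with a log2 fold change of -0.19 (95% interval -0.59 to 0.21, adjusted p = 0.398), and -0.67 with the length offsets (adjusted p = 0.0117). Atp5f1a (alpha) gave -0.15 (adjusted p = 0.516) and Atp5f1c (gamma) gave -0.21 (adjusted p = 0.390). Atp5if1, which inhibits ATP hydrolysis by the enzyme, had 353 and 273 TPM in Normal, 351, 382 and 379.6 in IC, and 498, 493 and 479.9 in IS. Its 3 IS rats lay above all IC and Normal rats, but the log2 fold change of 0.66 did not pass (SE 0.34, adjusted p = 0.127), except without IS-HA replicate 2 (0.66, adjusted p = 0.00616), and it was -0.27 with the length offsets (adjusted p = 0.199). The TPM of Atp5if1 relative to Atp5f1b was 0.234 ± 0.0623 in Normal (SD, n = 2), 0.274 ± 0.0265 in IC and 0.422 ± 0.0584 in IS (SD, n = 3). Between IS and IC this ratio did not overlap, and a two-sided exact permutation test gave p = 0.1 (adjusted p = 0.36 over the 45 tests of such shares and ratios), the smallest that 3 against 3 rats allow. Atp5mkl1, a copy of the gene for the dimer-associated subunit Atp5mk and therefore uncertain, was lower in IS-HA than in Normal (-0.84, SE 0.28, adjusted p = 0.0414), and gave -0.83 without IS-HA replicate 2 (adjusted p = 0.0595) and -1.51 with the length offsets (adjusted p = 0.00358).

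The 13 subunits encoded in mitochondrial DNA, which assemble with those above, were read from the same libraries. In IS against Normal 8 of 13 were lower and 0 higher (median log2 fold change -1.05), in IS-HA 7 were lower (-0.80), and in IC 1 was higher (ND6, 0.83) and 0 were lower (-0.42). Over all genes tested 24.2% were lower in IS and 12.1% in IS-HA, and 13% were higher in IC. Lower genes in IS included the complex I subunits ND4 (-1.47, SE 0.28, adjusted p = 0.00198) and ND5 (-2.24, SE 0.47, adjusted p = 0.0031), cytochrome b of complex III (CYTB, -1.03, SE 0.23, adjusted p = 0.00451) and COX1, the catalytic subunit of complex IV (-1.06, SE 0.24, adjusted p = 0.00515). With the length offsets all 13 were lower in IS. Their summed TPM was 33.0% and 30.2% of all TPM in Normal, 26.6%, 23.0% and 27.5% in IC, 18.1%, 18.8% and 16.2% in IS, and 22.5%, 15.995% and 23.5% in IS-HA. Nuclear-encoded subunits took 1.41% and 1.26% in Normal and 1.57%, 1.65% and 1.53% in IS, and as the TPM of each rat are scaled to the same sum, the fall of the first raises the second. Set against the TPM without mitochondrially encoded and hemoglobin genes, the nuclear-encoded subunits held 2.17% and 1.85% in Normal, 1.83% to 2.01% in IC, 1.85% to 2.06% in IS, and 1.91%, 2.83% and 1.88% in IS-HA. The ratio of mitochondrially encoded to nuclear-encoded subunit TPM was 23.5 and 23.9 in Normal, 18.5, 16.6 and 19.3 in IC, 11.6, 11.4 and 10.6 in IS, and 15.5, 6.83 and 16.7 in IS-HA. No IC rat overlapped an IS rat, and the IS-HA rats other than replicate 2 lay between IS and IC or within IC. Between IS and IC the two-sided exact permutation test of this ratio gave p = 0.1 (adjusted p = 0.36), the smallest possible. The libraries were made by poly(A) selection, and the part of RNA tail length or RNA quality in these levels was not tested.

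**Figure D5:**
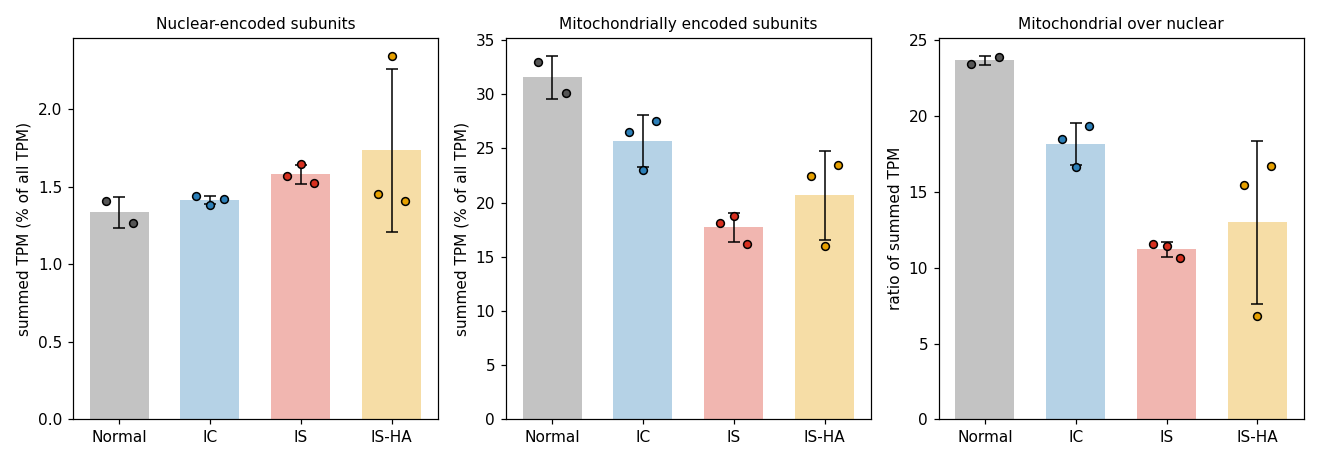
Summed TPM of the nuclear-encoded subunits (left) and of the 13 mitochondrially encoded subunits (middle), as a percentage of all TPM, and the ratio of the latter to the former (right). Bars are group means with error bars of 1 SD (n = 2 for Normal and n = 3 for the other groups) and points are rats. The mean ratio falls from 23.7 in Normal to 18.1 in IC and 11.2 in IS, and the left panel changes by less than the spread within IS-HA.

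The genes that assemble, import and supply the complexes were counted in IS against Normal from lists of other mitochondrial genes, where 24.8% of all genes were higher and 24.2% lower (21.6% and 27.2% with the length offsets). Counts near these shares are no result about a list. Of 14 complex I assembly factors, 1 was lower (Foxred1, -0.62) and 0 higher, with a median of -0.10. Under the length offsets 6 of the 14 were lower and 0 higher (median -0.54). Of 26 assembly factors of complexes II to V, 5 were higher and 2 lower (median 0.15), from Cmc1 (2.02, adjusted p = 0.0122) and Cmc2 (1.96, adjusted p = 0.0198), factors of complex IV, to Ttc19, a complex III factor (-1.33, adjusted p = 0.00173). With the length offsets 2 were higher and 6 lower. Among cytochrome c and complex IV partners 2 of 5 were lower, Cyct and Higd1a (-3.20 and -0.58), and 4 of 5 were lower with the offsets. Of 16 genes of the outer membrane channel and protein import, 5 were higher, including Tomm5 (1.02, adjusted p = 0.0280), and 2 lower, including the import receptor Tomm70 (-1.91, adjusted p = 0.00126). These counts were 2 higher and 2 lower with the offsets. Of 2 carriers of adenine nucleotides or phosphate tested, 0 passed, and 0 at an unadjusted p under 0.05, whereas 2 passed as lower with the offsets. Of 18 tricarboxylic acid cycle genes, which deliver NADH and succinate, 7 were lower and 3 higher (median -0.32), with Dlat of the pyruvate dehydrogenase complex at -1.25 (SE 0.22, adjusted p = 0.00129) and the NADP-linked Idh2 at 1.33 (SE 0.23, adjusted p = 0.0011). With the offsets 10 were lower and 2 higher. Among 13 regulators of mitochondrial gene expression, the coactivators Ppargc1a (-2.98, SE 0.63, adjusted p = 0.00334) and Ppargc1b (-2.70, SE 0.40, adjusted p = 0.000473) were lower, as was the ribosomal RNA methyltransferase Tfb1m (-0.80), while Nrf1 (0.71, SE 0.21, adjusted p = 0.0177) and Tfam (0.60, SE 0.20, adjusted p = 0.0281) were higher. Of the 13 regulators, 1 was higher and 5 were lower with the offsets. Foxred1, Higd1a, Cmc2, the 5 regulators named and the mitochondrially encoded genes above were named after their values were seen.

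Hematoma aspiration was compared with its absence at the same collagenase dose. In IS-HA against IS no subunit gene passed, 64 of the 84 genes had a 95% interval within a log2 fold change of 1 either way, and the median was 0.15. The direction rested on IS-HA replicate 2, since the median was -0.30 without it, where 4.37% of all genes passed and 0 subunit genes did. Besides Ndufs4 and Cox5b, Ndufv2 was among the smallest p, with 0.43 (adjusted p = 0.553), or 0.22 without that rat (adjusted p = 0.326). In IS-HA against IS, 2 genes were higher in all rats of the first group and 0 lower, where 4.96% and 5.42% of all genes were. In IS against IC, 22 genes were higher in all IS rats than in all IC rats and 2 were lower, where 19.2% and 18.7% of all genes tested showed such a separation. Without IS-HA replicate 2, which enters this comparison through the shared estimate of spread, Uqcrh was higher and Ndufs4 was lower (-0.44, adjusted p = 0.0496), where 14.1% of all genes passed.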

How the data were processed

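RNA of striatal tissue from 11 rats was measured by poly(A) RNA-seq, with 1 library per rat. The table deposited by the authors gives raw read counts and TPM for each gene in each rat. TPM deposited by the authors are counts divided by gene length and scaled to the same sum in each rat. The submitters' processing notes list bcl2fastq, fastp 0.20.0, FastQC 0.11.9, MultiQC, HISAT2 2.1.0, SAMtools 1.9, featureCounts from Subread, DESeq2 and the build mRatBN7.2, without their order or settings, and no other version is given in the sources used here. No column of values was left unmatched to a rat.

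Subunit genes were taken by symbol, and these members and all gene lists were chosen with earlier results of these data known. Counts were filtered with filterByExpr, scaled by TMM and tested with the quasi-likelihood F test of edgeR 4.0.16 in R 4.3.3, in a single model of all 4 groups, with p-values adjusted by Benjamini-Hochberg over 15742 genes and a threshold of 0.05. DESeq2, named in the study's methods, served as an alternative. Standard errors (SE) were derived from the F statistic and the log2 fold change. P-values measure the spread between rats, with 2 Normal rats. The counts assigned to genes per rat, 6701301 to 18817645, set the precision for low genes. No pair of rats in a group held counts that agreed within sampling noise. Relative gene lengths were derived by dividing counts by TPM. Offsets for gene length removed each rat's loess trend (span 0.5) of log2 CPM against log2 length. Reads shared between a subunit gene and its pseudogenes or copies cannot be told apart, and the pseudogenes left out held 0.534% of the joint counts.

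The genes named are the isoform families, the core or catalytic subunits with Atp5if1, the 3 largest rises and falls past the threshold in each comparison or the 3 smallest p where none passed, the genes that passed in IS against Normal in the minority direction, and the most abundant gene of each complex. The alternatives were DESeq2 size factors and library size alone, TMM without hemoglobin and mitochondrially encoded genes, the Wald test of DESeq2 1.42.0, limma 3.58.1 with trend on log2(TPM + 1), no filter, a minimum of 10 counts in each rat, a fit of just the 2 groups in question, the replicate number as a block, the length offsets with and without the block, and each rat left out in turn. The length offsets without IS-HA replicate 2 were added after the data were seen. For ratios of TPM an exact permutation test, two-sided, was used. The fit was tested on simulated data. Promoter sequences are those of RefSeq, assembly GRCr8, which is not the build of the counts, and they were matched by Entrez gene identifier. Plots were drawn with matplotlib 3.10.9. Some values are not reported here.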

Additional observations from a re-analysis of the deposited data

How the results depend on the processing

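Of the subunit genes, 1 passed in IC against Normal, and this count was 2 with library size alone, 4 with DESeq2's Wald test, 2 with limma on log2(TPM + 1), 0 without a filter, 9 with only the 2 groups compared, 22 with the length offsets, 33 with the offsets and without IS-HA replicate 2, and 0 to 10 with 1 rat left out. In the same order the share over all genes was 18.6%, 25.4%, 14.9%, 12.1%, 35.6%, 23.3%, 35.5% and 5.17% to 33.3% (17.6% in the main fit). For IS against Normal, 12 became 21 with limma, 33 with only the 2 groups, 28 with the offsets, 36 with the offsets and without IS-HA replicate 2, and 1 to 41 with 1 rat left out: 7 without Normal replicate 1, 1 without Normal replicate 3, 7 without IS replicate 4 and 41 (31 higher and 10 lower) without IS-HA replicate 2. The matching shares over all genes were 43.7%, 53.5%, 48.8%, 56.4% and 24.6% to 59.5% (49% in the main fit). Leaving out each rat named gave 35.1%, 24.6%, 37.7% and 59.5%. For IS-HA against Normal, 9 became 14 with library size alone (13 higher), 0 with only the 2 groups, 22 with the offsets, 32 with the offsets and without IS-HA replicate 2, and 0 to 16 with 1 rat left out, which was 0 without either Normal rat, 4 or 5 without IC replicate 2, 3 or 4, IS replicate 2 or 3 or IS-HA replicate 2, and 16 without IS-HA replicate 1. For IS against IC, 0 became 2 with the offsets and without IS-HA replicate 2, and 0 to 2 with 1 rat left out. Over all genes 11.1% and 0% to 14.1% then passed. For IS-HA against IS, the count was 0 in all 23 alternatives, where at most 4.37% of all genes passed. The cause was not tested.

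Ndufs4 in IS against Normal passed in 23 of 23 alternatives (log2 fold change -1.47 to -0.87), Ndufs1 and Uqcrc2 in 21 each, and Sdha in 10. Calls that were often lost were Ndufs4 in IC (in 11 of 23), Uqcrc2, Cox4i2, Atp5mkl1 and Atp5mpl in IS-HA (in 16, 15, 14 and 12 of 23) and Ndufb11b in IS (in 9 of 22). Uqcrfs1 in IS turned to -0.18 with the length offsets and -0.17 with the offsets and without IS-HA replicate 2.

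Same-numbered rats of different groups are different animals, and over 9 same-numbered pairs the correlations of deviations from the group means ran from -0.475 to 0.356, so the numbers do not pair the rats. With the replicate number as a block, 0 genes passed in IC, 1 in IS and 0 in IS-HA against Normal, and with the block and the length offsets 2 passed in IC. Over all genes 5.33%, 17.7% and 15.3% passed with the block, and 4.79% passed in IC with the block and the offsets. Of the 12 main calls in IS, 3 also passed with the block and the offsets, as did 2 of the 9 in IS-HA. Over all genes 21.2% and 18.2% passed in these 2 comparisons. In the block with the offsets Uqcrfs1 stood at -0.14 and Sdhd at -0.00521 in IS. The block left fewer residual degrees of freedom.

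With 2 or 3 rats a group, intervals within 2-fold were reached for 38 of 84 genes in IS against Normal. Wide intervals were not limited to low genes. The SE was 0.52 for Cox6a2, at a mean of 1.34 CPM, and 0.53 for Uqcrq, at 82.9 CPM.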

Other observations

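Genes of glycolysis and the hypoxia response, which act beside oxidative phosphorylation in supplying ATP, passed the test in both directions at about the share of all genes. Of 27 genes tested in IS against Normal, 7 were higher and 7 lower (median log2 fold change 0.26), where 24.8% of all genes were higher and 24.2% lower, and with the offsets for gene length 4 were higher and 9 lower. Higher genes included Slc16a3, a lactate exporter (4.78, SE 0.76, adjusted p = 0.000727), the hexokinase Hk2 (2.12, SE 0.33, adjusted p = 0.000685) and the lactate dehydrogenase gene Ldha (1.24, SE 0.32, adjusted p = 0.00878). Lower genes included the neuronal enolase Eno2 (-1.18, SE 0.27, adjusted p = 0.00507), the neuronal glucose transporter Slc2a3 (-1.002, SE 0.35, adjusted p = 0.0329) and Ldhb, the other lactate dehydrogenase subunit (-0.85, SE 0.26, adjusted p = 0.0210). Isoforms of a single enzyme thus stood on opposite sides, with Pfkl higher (0.80, SE 0.18, adjusted p = 0.00398) and Pfkm and Pfkp lower (-1.01 and -0.85), and with Eno1 higher (0.94, SE 0.27, adjusted p = 0.0137) where Eno2 was lower. Apart from Slc16a3 and Eno2, these genes were named after their values were seen.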
